A study of Mus musculus with 10 samples.

Results

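CCR2+ monocytes and neutrophils were compared in the lungs of NOD/scid mice that carried the highly metastatic tumour TN1 (HCl-001 in the labels) to end point. The members are the 4 libraries whose titles name TN1, 2 of CCR2+ monocytes and 2 of neutrophils, out of 10 libraries in the series. The tags tag_191 and tag_482 each occur once among the monocytes and once among the neutrophils. Both cell types were sorted by FACS from lung tissue, and all 4 libraries share the NOD/scid background, the TN1 tumour and the end point. The other 6 libraries, 3 of each cell type, come from NOD/scid mice with the low metastatic tumour TN2 (HCl-002). They entered here through the choice of genes tested, the scaling of counts and the shared estimate of the spread. They also entered the test of whether a lineage difference depended on the tumour. With the 4 TN1 libraries alone 10530 genes were tested, against 13398 here. The labels do not say whether tags are separate animals, so p-values measure the spread between these libraries, which may in part be technical.

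Neutrophils and monocytes arise from a common myeloid progenitor in the bone marrow and are recruited to inflamed tissue through different receptors. Neutrophils depend on granulocyte colony-stimulating factor and on CXCR2, carry preformed granules of antimicrobial proteins and make little new protein. Classical monocytes leave the marrow through CCR2, depend on colony-stimulating factor 1 and can become macrophages or cells with features of dendritic cells, which take up material and present it on MHC molecules. NOD/scid mice lack functional T and B lymphocytes, so both cell types were studied without an adaptive response.

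The TN1 libraries held 7239218 to 10898465 estimated counts each, the number of reads that the authors' software assigned to transcripts. Both tag_482 libraries stood apart from their tag_191 partners. They reached 5 counts in 9744 genes (monocytes) and 8863 genes (neutrophils), against 12253 and 11812 with tag_191, and mitochondrially encoded transcripts took 19.9% and 3.0% of their length-corrected transcript abundance (TPM), against 5.82% and 0.283%. List counts and list medians are therefore given also without both of them, where the lone library left of each cell type is assumed to vary like the TN2 groups and fewer calls are possible. Across 13398 genes, which are not independent replicates, levels had a Spearman coefficient of 0.823 between the monocyte libraries and 0.796 between the neutrophil libraries, and of 0.731 (tag_191) and 0.584 (tag_482) between the cell types.

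Markers of each sorted lineage followed the labels. The lists were chosen with earlier results of these data known, so the counts that follow are no independent check of the sorts. All 18 neutrophil markers tested were higher in neutrophils, and 10 of 15 classical monocyte markers were higher in monocytes, while 0 of each were called the other way. Levels are counts scaled to library size (CPM), not corrected for gene length, here and below given for tag_191 first and tag_482 second. Without both tag_482 libraries, 4 of the neutrophil markers were called and their median log2 difference was -7.99, against -8.32 with them. The 18 neutrophil markers summed to 117118 and 114314 CPM in the neutrophil and to 2069.9 and 1945 CPM in the monocyte libraries. The 15 classical monocyte markers summed to 10705 and 10003 CPM in the monocyte and to 2215 and 3778 CPM in the neutrophil libraries. Markers of other lung cells were low in all 4 libraries. Summed epithelial markers were at 45.8 and 226 CPM in monocytes and 124 and 256 CPM in neutrophils, endothelial markers at 73.9 and 241 and 145 and 499 CPM, stromal markers at 29.5 and 161 and 108 and 344 CPM, lymphocyte markers at 76.2 and 216 and 79.7 and 103 CPM and natural killer cell markers at 180.0 and 196 and 52.7 and 3 CPM. Each of the epithelial, endothelial and stromal sums was higher in the tag_482 library of its cell type, and none of the members of these 5 lists passed the test between the lineages. Globin and other erythroid markers summed to 0.323 and 190.6 CPM in monocytes and 0 and 6.43 CPM in neutrophils. Of 4 eosinophil, basophil and mast cell markers tested, 1 was called, Siglecf, and it was higher in neutrophils. The 10 markers listed for these cells summed to 6.45 and 25.4 CPM in monocytes and 81.8 and 71.1 CPM in neutrophils. What these cells contributed to any single gene was not tested.

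The lineages differed in 1680 of 13398 genes (12.5%) at an adjusted p under 0.05 in edgeR's quasi-likelihood test, with 857 genes (6.4%) higher in monocytes and 823 genes (6.14%) higher in neutrophils. The smallest adjusted p was 0.000574, and 3796 genes had an unadjusted p under 0.05. In all 1680 called genes the 2 libraries of one cell type lay above both of the other, where over all tested genes 29.8% separated in this way with monocytes higher and 23.7% with neutrophils higher. Of the called genes, 753 that were higher in monocytes and 593 that were higher in neutrophils differed by more than 4-fold, and 115 and 60 by more than 256-fold. In 138 and 47 of the called genes the other cell type had at most 3 counts over both libraries. Their fitted folds rest on few or 0 counts and are not measured sizes. The median log2 difference of all tested genes, monocytes minus neutrophils, was 0.28, and list medians below are read against it. A gene at 0 counts in both libraries of a cell type has no fitted fold change that bounds its difference. A bound was therefore set for each gene with at most 3 counts, 0 included, over both libraries of only 1 cell type. It takes that cell type to hold 3 counts. With these genes at their bound, the medians of these lists became 6.43 (MHC class II), 6.19 (dendritic cell markers), 3.74 (interstitial macrophage markers), -2.32 (chemotactic receptors) and 2.14 (complement, coagulation and matrix). The called neutrophil genes held 60.5% and 58.1% of all TPM in the neutrophil libraries and 12.5% and 9.10% in the monocyte libraries. The called monocyte genes held 21.5% and 22.6% of TPM in monocytes and 1.79% and 2.15% in neutrophils. The number of calls rested on single libraries. Without the monocyte library of tag_482 the counts were 224 and 261, without the neutrophil library of tag_482 522 and 567, without the monocyte library of tag_191 513 and 911, and without the neutrophil library of tag_191 1392 and 629 (higher in monocytes and in neutrophils). The monocyte-high count also fell by more than 1.5 times without the TN2 monocyte library of tag_367 (503) or tag_1341 (562). Without both tag_482 libraries 59 and 77 genes were called, and 122 of these 136 were among the 1680. Of the 149 called genes named here, 121 lost the call in that alternative. Without the tag_482 monocytes alone, 0 genes were called among the alveolar macrophage markers, azurophil granule proteins, Fc receptors, MHC class I genes, interferon gamma-inducible GTPases, cell death genes and mitochondrially encoded genes. Of the calls, 51% were higher in monocytes, against 73.9% and 72.9% when limma-trend was run on log2(TPM + 1) and log2(TPM + 0.1), where the median of all genes was 0.38 and 0.68, and 37.6% when the 4 TN1 libraries were tested alone. In bulk RNA, fewer cells of a type and less RNA per cell cannot be told apart.

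**Figure D1:**
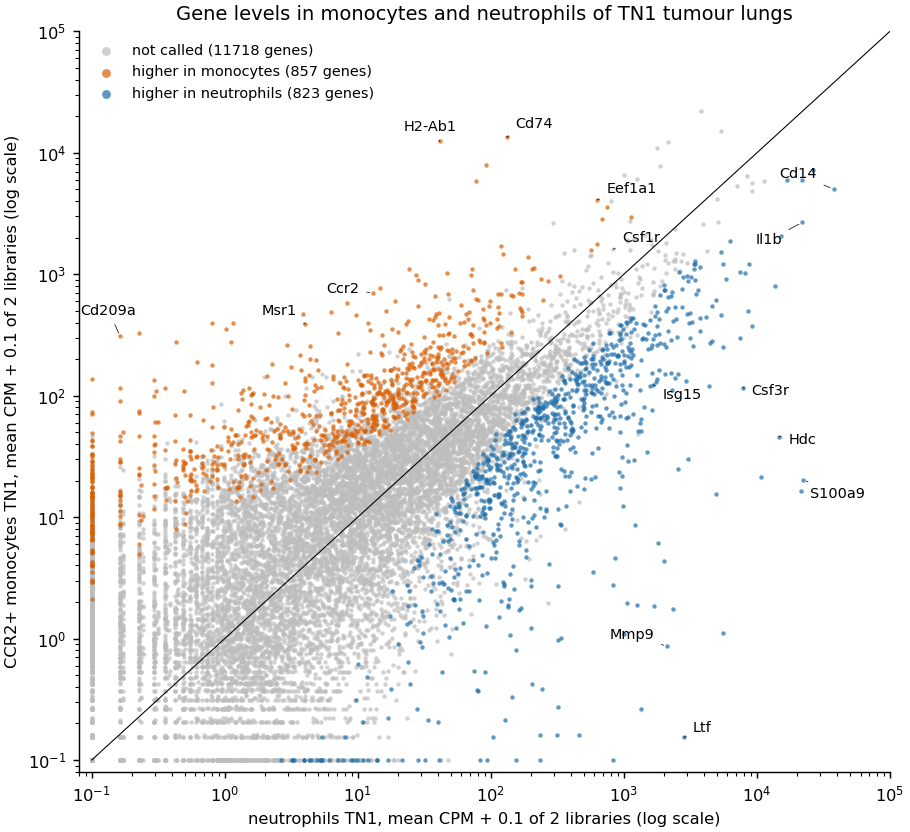
Mean CPM of each tested gene in the 2 neutrophil libraries (x) and the 2 CCR2+ monocyte libraries (y) of TN1, on log axes after adding 0.1, so that genes at 0 lie at 0.1. Each point is a gene: orange marks the 857 genes called higher in monocytes, blue the 823 called higher in neutrophils and grey the rest, and the line marks equal levels. The MHC class II genes H2-Ab1 and Cd74 lie far above the line, and S100a9, Hdc and Csf3r lie far to the right.

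The genes separated with the smallest p-values were not all classical markers. On the neutrophil side, Slc27a4, a fatty acid transport protein (GRCm38 chromosome 2, 29802634 to 29817522), was at 363 and 303 CPM in neutrophils and 8.28 and 9.03 CPM in monocytes (log2 difference -5.26 ± 0.38 SE, edgeR adjusted p = 0.000574). Trim30b, of a cluster of interferon-inducible TRIM genes (chromosome 7, 104355382 to 104369884), was at 1090.2 and 1028 against 45.04 and 32.9 CPM (log2 -4.76 ± 0.34). Themis2, an adaptor in signalling of myeloid and B cells, was at 2815 and 3051 against 114 and 149.9 CPM (log2 -4.47 ± 0.34). In these 3 genes the libraries of a cell type lay far closer to each other than to those of the other cell type. Their choice by smallest p among genes without overlap already favours this. Each SE, here and below, is the absolute log2 difference divided by the square root of the test's F statistic. It is derived from the test and is not an error that edgeR estimates separately. Grina, a membrane protein of the TMBIM family (log2 -5.18), the transcription factor Ets2 (-3.9), Il1rap, the shared signalling chain of interleukin 1 family receptors (-5.33), the peptidoglycan-binding granule protein Pglyrp1 (-6.35), Ripor2 (-5.22), the syntaxin Stx11 (-4.66), the SLAM family receptor Cd84 (-3.47) and the mitochondrial carrier Sfxn5 (-4.55) completed this group together with Csf3r. On the monocyte side Cd74 and Spon1 were among the genes with the smallest p-values. Spon1, a secreted matrix protein (chromosome 7, 113765998 to 114043370), was at 272 and 282 against 0.895 and 1.14 CPM (log2 8.07 ± 0.73). The heparan sulfate proteoglycan Sdc3 (log2 6.51), the membrane-bound chemokine Cxcl16 (4.82), Emp1 (4.47), the peroxiredoxin Prdx1 (3.86), the ATP synthase subunit Atp5o (3.94) and the ribosomal protein Rpl13 (3.32) followed, with the class II genes described below.

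The most abundant transcripts among the genes called higher in neutrophils were those of S100a8 and S100a9, the 2 chains of calprotectin. S100a8 (chromosome 3, 90668978 to 90670035) made up 79438 and 122685 TPM in neutrophils and 67.5 and 147 TPM in monocytes, and S100a9 57218 and 68772 against 23.7 and 134 TPM, on a scale that corrects for length. In CPM, S100a8 was at 16455 and 26414 against 9.03 and 23.5 (log2 -10.36 ± 1.32, adjusted p = 0.00244). Next in abundance among the called neutrophil genes were the ferritin heavy chain Fth1, the lipopolysaccharide co-receptor Cd14, Il1b, the granule proteoglycan Srgn, Actg1, H2-D1, the signalling adaptor Tyrobp and the decoy receptor Il1r2. Fth1 (log2 -1.87), Actg1 (-1.86), H2-D1 (-1.5) and Tyrobp (-1.4) were also abundant in monocytes, and Srgn (-2.87) was at 2016 and 2092 CPM there. The most abundant called monocyte genes were Cd74, H2-Ab1, H2-Aa and H2-Eb1, then Crip1 (log2 5.51), the cysteine protease inhibitor Cst3 (1.38), the calcium-binding protein S100a4 (5.72), the elongation factor Eef1a1 (2.7), Ctss and the ribosomal protein Rpl41. S100a4 was thus higher in monocytes, at 772 and 759.7 against 6.27 and 22.7 CPM, while S100a8 and S100a9 were higher in neutrophils.

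**Figure D2:**
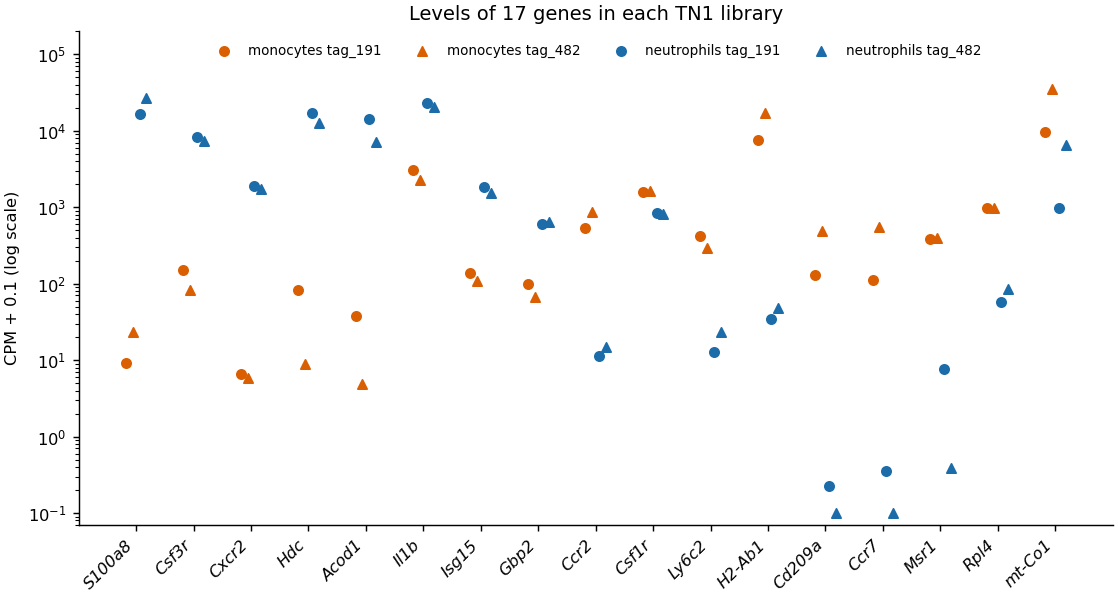
CPM plus 0.1 on a log axis for 17 named genes in each of the 4 TN1 libraries: circles tag_191, triangles tag_482, orange CCR2+ monocytes, blue neutrophils. The 8 genes from S100a8 to Gbp2 lie above in both neutrophil libraries, and the 9 from Ccr2 to mt-Co1 above in both monocyte libraries, of which Csf1r and mt-Co1 did not pass the test.

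Receptors for growth factors and chemoattractants separated the lineages in both directions. Csf3r, through which granulocyte colony-stimulating factor acts (chromosome 4, 126024550 to 126044440), was at 8316 and 7300.4 CPM in the neutrophil libraries and 149 and 83.4 CPM in the monocyte libraries (log2 -6.07 ± 0.50, adjusted p = 0.000694). Both neutrophil libraries lay far above both monocyte libraries. Ccr2, the chemokine receptor by which the monocytes were sorted (chromosome 9, 124101950 to 124113557), was at 531 and 869 CPM in monocytes and 11.1 and 14.9 CPM in neutrophils (log2 5.75 ± 1.30, adjusted p = 0.0191). As the sort used this receptor, its difference checks the gate and is no finding. Csf1r, the receptor of colony-stimulating factor 1, did not pass the test: it was at 1566 and 1643 CPM in monocytes and 839.7 and 821 CPM in neutrophils (log2 0.95 ± 0.37, adjusted p = 0.127). Its libraries did not overlap between the cell types, and it was one of the more abundant transcripts in neutrophils too.

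Of 20 chemotactic receptors, 9 were higher in neutrophils and 3 in monocytes (median log2 -2.53, and -2.79 with 0 calls without both tag_482 libraries). The neutrophil-high members included Cxcr2, the receptor for neutrophil-attracting chemokines, at 1865 and 1713 against 6.45 and 5.66 CPM (log2 -8.2 ± 1.17), the complement C5a receptor C5ar1 (4771 and 3519 against 518 and 373 CPM), Ccr1 (4029.9 and 2214 against 326 and 266 CPM), Ccrl2 (4746 and 5053 against 452 and 767 CPM) and the receptor of platelet-activating factor Ptafr (log2 -2.06). The 3 members higher in monocytes were Ccr2, Ccr7 and C3ar1, the last named after its values were seen. Cx3cr1, which marks nonclassical monocytes, was at 54.6 and 0.241 CPM in monocytes and 9.21 and 24.9 CPM in neutrophils, so the cell types overlapped. Of 28 growth factor and cytokine receptors, 6 were higher in neutrophils and 2 in monocytes (median -0.52, or -0.55 with 3 calls in neutrophils without tag_482, but 0.04 with limma-trend on log2 TPM). Il1r2, which binds interleukin 1 without signalling, was at 8834 and 9587 against 205 and 549.7 CPM (log2 -4.61 ± 0.57), and Il1rap and the TNF receptor Tnfrsf1a (log2 -1.94) were also higher in neutrophils. Ifngr1, the ligand-binding chain of the interferon gamma receptor, was at 519.6 and 648 CPM in monocytes and 557 and 546 CPM in neutrophils, and Csf2rb at 1496 and 948 and 1820.3 and 1139 CPM, and neither passed the test.

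Chemokine ligands attract leukocytes through these receptors. Of 18 tested, 4 were higher in monocytes and 2 in neutrophils (median log2 1.44, 0.7 without both tag_482 libraries with 1 call). Cxcl2, a ligand of CXCR2, was at 4049.8 and 3139.9 CPM in neutrophils and 897 and 571 CPM in monocytes (log2 -2.29 ± 0.40, adjusted p = 0.00723), and Ccl6 was also higher in neutrophils (1755 and 1687 against 588 and 514 CPM). Ccl9 was at 1189 and 1019 CPM in monocytes and 40.03 and 105 CPM in neutrophils (log2 3.93 ± 0.94), and Cxcl16 at 277 and 413 against 12.9 and 11.6 CPM. Cxcl1 (115 and 144 against 72.5 and 154 CPM), Ccl3 (56.7 and 30.5 against 88.5 and 40.6 CPM) and Ccl4 (52.03 and 40.5 against 59.9 and 29.00 CPM) overlapped between the cell types.

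Granule proteins are made in steps as neutrophils mature. Of 19 specific and gelatinase granule proteins, 10 were higher in neutrophils and 0 in monocytes (median log2 -3.1, -2.78 without both tag_482 libraries with 1 call). Ngp was at 3229 and 7889 CPM in neutrophils and 1.08 and 0.964 CPM in monocytes (log2 -12.39 ± 2.06). Ltf, lactoferrin, was at 1254 and 4385 CPM in neutrophils, with 1 count over both monocyte libraries (adjusted p = 0.00646). The gelatinase Mmp9 was at 2490.2 and 1735 against 0.323 and 1.2 CPM, the siderophore-binding lipocalin Lcn2 at 1453 and 1886 against 2.9 and 0.602 CPM, and haptoglobin Hp at 3595 and 3922 against 559 and 315 CPM (log2 -3.1). The larger value of Ngp and of Ltf was that of the tag_482 neutrophils. Azurophil granule proteins, many of which are transcribed in immature cells, were called in both directions. Of 10 tested, 1 was higher in monocytes (Gusb, log2 2.76) and 2 were higher in neutrophils (Man2b1, -1.46, and Prss57). The log2 difference was positive in 7 of the 10, called or not. The median of the list was 1.56, or 1.7 without both tag_482 libraries. Myeloperoxidase, Mpo, stayed at 0.645 and 0.241 CPM in monocytes and 2.56 and 0 CPM in neutrophils. Lysozyme, Lyz2, was at 16803 and 13416 CPM in monocytes and 4138 and 6617 CPM in neutrophils and did not pass the test (log2 1.49 ± 0.72, adjusted p = 0.206). Ly6g, the antigen often used to gate neutrophils, was at 93.1 and 66.1 against 0.538 and 0 CPM (log2 -8.1 ± 1.34), and Hdc, which makes histamine, at 16890.1 and 12510.5 against 82.9 and 8.91 CPM (log2 -8.32 ± 1.32).

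The phagocyte NADPH oxidase makes superoxide, and redox enzymes limit its damage. Of 24 NADPH oxidase and redox genes, 6 were higher in neutrophils and 1 in monocytes (median -0.94, or -0.68 with 1 call in monocytes without tag_482). Without the tag_482 monocytes alone, 1 was called higher in each cell type. The oxidase factor Rac2 (log2 -2.18), the thioredoxin inhibitor Txnip (1882 and 1369 against 85.03 and 67.9 CPM) and Prdx6 (-1.4) were higher in neutrophils, and Prdx1 was higher in monocytes (885 and 482.3 against 40.3 and 54.1 CPM). The catalytic subunit Cybb was at 1529.9 and 1303 CPM in monocytes and 277 and 840.2 CPM in neutrophils (log2 1.34 ± 0.65, adjusted p = 0.204), and its partner Cyba at 615 and 698 and 581 and 718 CPM, and neither passed the test. Hmox1, which degrades heme, differed more between tags than between cell types, at 2678 and 336 CPM in monocytes and 609 and 101 CPM in neutrophils. Of 23 integrins and selectin pathway genes, 5 were higher in neutrophils and 0 in monocytes (median -0.9, or -1.15 with 1 call in monocytes without tag_482). The selectin ligand Selplg was at 2602 and 3679 against 476 and 485 CPM, the integrin chain Itgam at 1370.4 and 637 against 209 and 160.0 CPM (log2 -2.44) and Cd44 at 4475 and 3001 against 1257 and 1048 CPM. The integrin chains Itgb2 and Itgal did not pass the test (adjusted p = 0.141 and 0.172).

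On the monocyte side, Ly6c2, the antigen that marks inflammatory monocytes, was at 424 and 289 CPM in monocytes and 12.7 and 23.1 CPM in neutrophils (log2 4.31 ± 1.12, adjusted p = 0.0339). The classical monocyte markers had a median log2 difference of 4.31 (5.0 without both tag_482 libraries, with 1 call). Ms4a6c (586 and 616 against 11.3 and 26.7 CPM), Ms4a4c (939 and 1034 against 11.1 and 43.6 CPM), Fn1, fibronectin (546 and 378 against 2.81 and 16.4 CPM), and the transcription factor Irf8 (131 and 263 against 9.46 and 0 CPM) were among the 10 called. Csf1r, Plac8, Klf4, Mpeg1 and Chil3 were not. Plac8 (log2 1.9 ± 0.59, adjusted p = 0.0646) and Mpeg1 (1.34 ± 0.39, 0.0528) were close to the threshold and stood at 399.5 and 446 CPM and 559.9 and 571 CPM in neutrophils. Chil3 was at 519 and 73.8 CPM in monocytes and 296 and 1656 CPM in neutrophils, so each cell type had 1 high library. Of 10 nonclassical monocyte markers, 1 was called, and it was higher in neutrophils: Nr4a1, also an early response gene, at 2923 and 4092 against 541 and 845 CPM (log2 -2.34 ± 0.45). The median of these 10 was 0.12, and it was 0.23 with 0 calls without tag_482 and turned to -0.08 with limma-trend on log2(TPM + 0.1) and to -0.77 without both tag_191 libraries.

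Markers of dendritic cells and of tissue macrophages were also measured. Of 11 dendritic cell markers tested, 6 were higher in monocytes and 0 in neutrophils (median log2 6.29; without both tag_482 libraries 3.92 and 0 calls). The sum of all 12 listed markers was 579 and 1572 CPM in monocytes and 22.3 and 31.1 CPM in neutrophils, and the tag_482 monocytes were the higher. Bst2, among the called members (log2 3.94), is also counted in the type I interferon list below. Its levels, given there, make up a large part of the tag_191 monocyte and tag_482 neutrophil sums. Cd209a, a lectin of monocyte-derived dendritic cells, was at 132 and 484 CPM in monocytes, with 1 count in neutrophils (adjusted p = 0.00989). Ccr7, the receptor by which dendritic cells reach lymph nodes, was at 109.9 and 545 CPM in monocytes, with 2 counts in neutrophils (adjusted p = 0.00707). Clec10a was at 47.8 and 93.6 CPM in monocytes and at 0 counts in both neutrophil libraries, so that it was at least 349-fold higher when 3 counts are set for the neutrophils together. Clec9a, Zbtb46 and Xcr1, which mark conventional dendritic cells, were lower and did not pass the test. In monocytes Clec9a was at 9.46 and 73.6 CPM, Zbtb46 at 13.3 and 16.99 CPM and Xcr1 at 8.92 and 7.11 CPM. Not all of the 6 called members are named here, so these genes do not stand for all markers of conventional dendritic cells. Of 12 interstitial macrophage markers, 3 were higher in monocytes: Trem2 (69.6 and 91.6 against 1.28 and 0.143 CPM, log2 6.78 ± 1.16), Maf (15.1 and 20.6 against 2.3 and 0.571 CPM) and the hemoglobin scavenger receptor Cd163, which was at 9.03 and 40.96 CPM in monocytes and at 0 counts in neutrophils (at least 123-fold higher). The median of these 12 was 4.39, or 3.15 with 0 calls without tag_482. Apoe (199 and 144 against 18.4 and 63.9 CPM) and C1qb (15.1 and 44.7 against 2.17 and 0 CPM) did not pass the test. Of 11 alveolar macrophage markers, 0 were higher in monocytes and 1 was higher in neutrophils, the lectin Siglecf, at 62.8 and 49.7 against 2.26 and 4.34 CPM (median of the list -0.48, or 0.23 with 0 calls without tag_482). Siglecf is also counted among the eosinophil, basophil and mast cell markers above, and which cells carried it was not tested. Whether separate cells or the sorted monocytes themselves carried the dendritic and macrophage transcripts was not tested.

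MHC class II had the highest median among the functional lists. Of its 11 members, 9 were higher in monocytes and 0 in neutrophils (median log2 6.68, and 6.14 with 3 calls without both tag_482 libraries). The list summed to 28140.4 and 53968 CPM in monocytes and 338 and 370.3 CPM in neutrophils, and to 3.87% and 6.29% against 0.0301% and 0.0324% of TPM. H2-Ab1, the beta chain of I-A (chromosome 17, 34257689 to 34269419), was at 7638 and 17129 CPM in monocytes and 34.7 and 47.9 CPM in neutrophils (log2 8.23 ± 0.76, adjusted p = 0.000805). H2-Aa, the alpha chain, was at 5629 and 10346 against 84.7 and 100.3 CPM (log2 6.43 ± 0.71), and H2-Eb1 at 4207 and 7522 against 77.6 and 78.00 CPM (log2 6.24 ± 0.75). Cd74, the invariant chain that escorts class II to endosomes, was at 9587 and 17264 against 129.5 and 133 CPM (log2 6.68 ± 0.58). H2-DMb2, of the complex that loads peptides, was at 266 and 446 against 1.41 and 0.429 CPM. The tag_482 monocytes were higher than the tag_191 monocytes in all 5 of these genes. H2-Ob (5.27 and 18.4 against 1.92 and 0 CPM) and H2-Eb2 did not pass the test.

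Promoters of class II genes share boxes that nuclear factors read, one of which holds the letters CCAAT or, on the other strand, ATTGG. In 300-base RefSeq windows (GRCm38.p6, 250 bases before to 50 after the annotated start) CCAAT occurred on either strand in 7 of 8 class II promoters (87.5%) and in 38.7% of the 10096 promoters of tested genes. It occurred in 38.3% of promoters of genes higher in monocytes and 40.1% of those higher in neutrophils. A high share was not particular to class II: it was in 19 of 22 cell cycle promoters (86.4%) and 13 of 18 class I promoters (72.2%). The 150 bases before the start are shown for 3 class II genes on chromosome 17, H2-DMb1 having been picked after its values were seen, with each match in capitals, 5′ to 3′ on the gene's strand. The windows lie at chr17:34287824-34287973 (minus strand), chr17:34305717-34305866 (plus strand) and chr17:34153041-34153190 (plus strand).
H2-Aa: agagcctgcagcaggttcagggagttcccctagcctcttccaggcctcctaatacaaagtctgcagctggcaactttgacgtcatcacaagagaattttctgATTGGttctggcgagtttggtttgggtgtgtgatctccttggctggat
H2-Eb1: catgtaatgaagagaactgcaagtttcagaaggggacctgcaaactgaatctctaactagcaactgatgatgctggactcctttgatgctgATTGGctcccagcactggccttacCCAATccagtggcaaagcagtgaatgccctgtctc
H2-DMb1: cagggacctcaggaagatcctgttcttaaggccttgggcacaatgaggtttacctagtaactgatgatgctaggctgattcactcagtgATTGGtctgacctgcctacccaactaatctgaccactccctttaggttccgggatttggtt
The match on the other strand begins 48 bases before the start in H2-Aa, 59 in H2-Eb1 and 61 in H2-DMb1, and H2-Eb1 has a match on its own strand 35 bases before it. A match is a description of letters, and which factors bound was not measured. The windows here and below are reference sequence, and how well they match NOD/scid mice was not tested.

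MHC class I genes were transcribed in both lineages. Of 21 class I and peptide loading genes, 5 were higher in monocytes and 2 in neutrophils (median 0.32, or 0.29 with 0 calls without tag_482). Leaving out the tag_482 monocytes alone gave 0 and 0 calls, leaving out the tag_191 monocytes 1 and 0, and leaving out either neutrophil library 3 and 0. The classical chain H2-D1 was higher in neutrophils, at 17495 and 15969 against 6095 and 5732 CPM (log2 -1.5 ± 0.35, adjusted p = 0.0207), whereas H2-K1 was at 827 and 735 CPM in monocytes and 1036 and 696 CPM in neutrophils and did not pass. Beta 2 microglobulin, B2m, was at 5999 and 5291 and 8948 and 9538 CPM (adjusted p = 0.19). The loading chaperones Pdia3 (log2 2.33 ± 0.48) and Calr (2.0 ± 0.50) and the immunoproteasome subunit Psmb8 (1.52 ± 0.37) were higher in monocytes. Class I genes are near-identical in sequence, so reads may be divided between them with an error that the files do not give. How well the class I and class II sequences of NOD/scid mice match those of GRCm38 was not tested. Levels of different class I genes, or of different class II genes, may therefore not be comparable.

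Interferons induce antiviral proteins through receptors on the cell surface. Of 32 type I interferon-stimulated genes, 13 were higher in neutrophils and 3 in monocytes (median log2 -1.24, -0.98 without both tag_482 libraries with 1 call). Isg15, a ubiquitin-like modifier (chromosome 4, 156199424 to 156200818), was at 1811 and 1511 CPM in neutrophils and 136 and 109.7 CPM in monocytes (log2 -3.76 ± 0.41, adjusted p = 0.00172). Oasl2 (1410.0 and 1298 against 234 and 161 CPM), Oas3, which makes the activator of RNase L (1297 and 954 against 273 and 183 CPM), and Rtp4 (967 and 1020.1 against 182 and 201 CPM) had the same direction. The 3 members higher in monocytes were Bst2, tetherin (229 and 223 against 8.31 and 21.1 CPM, log2 3.94 ± 0.71), and Mx1 and Ifi44, named after their values were seen. Ifitm3 (1907 and 1888 against 892 and 1219 CPM) and Irf7 (912 and 781 against 1159.8 and 1376 CPM) did not pass. Of 14 interferon gamma-inducible GTPases, 4 were higher in neutrophils and 0 in monocytes (median -0.13, or -0.31 with 0 calls without tag_482, but 0.11 and 0.17 with limma-trend on log2 TPM plus 1 and plus 0.1): Gbp2 (595 and 646 against 98.5 and 67.7 CPM, log2 -2.9 ± 0.47), Gbp7 (log2 -2.39), Igtp (-2.02) and Irgm2 (-2.19). Irgm1 was at 77.8 and 119 CPM in monocytes and 64.1 and 115 CPM in neutrophils.

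The element through which interferons act on these genes is close to the letters GAAA, any 2 bases and GAAA again. This string occurred on either strand in 13 of 23 promoters of the type I list (56.5%), in 9 of 10 of the GTPase list (90%) and in 3.44% of all 10096 promoters. It occurred in 5.38% of promoters of the genes higher in monocytes and 4.95% of those higher in neutrophils. Windows of 4 genes higher in neutrophils and of Bst2, which was higher in monocytes, are shown as above, with the matches in capitals, so that both directions can be compared. They lie at chr4:156200819-156200968 (minus), chr5:120777660-120777809 (minus), chr3:142620513-142620662 (plus), chr11:58214827-58214976 (plus) and chr8:71537473-71537622 (minus).
Isg15: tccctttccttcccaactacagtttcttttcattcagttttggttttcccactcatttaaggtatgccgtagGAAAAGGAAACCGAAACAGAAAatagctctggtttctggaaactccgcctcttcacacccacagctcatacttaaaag
Oas3: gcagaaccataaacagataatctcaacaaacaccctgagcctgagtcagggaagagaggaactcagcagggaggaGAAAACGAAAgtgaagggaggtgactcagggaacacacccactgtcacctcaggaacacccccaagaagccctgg
Gbp2: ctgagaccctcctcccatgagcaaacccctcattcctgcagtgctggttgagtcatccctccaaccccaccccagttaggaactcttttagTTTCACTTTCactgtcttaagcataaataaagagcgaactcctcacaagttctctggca
Irgm2: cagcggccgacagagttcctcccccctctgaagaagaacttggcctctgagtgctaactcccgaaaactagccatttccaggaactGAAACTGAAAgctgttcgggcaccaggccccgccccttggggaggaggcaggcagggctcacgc
Bst2: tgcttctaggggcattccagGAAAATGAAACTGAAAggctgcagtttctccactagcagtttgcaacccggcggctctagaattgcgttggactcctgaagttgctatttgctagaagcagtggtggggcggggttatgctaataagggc
Isg15 has 3 overlapping matches, the farthest beginning 78 bases before the start, and Bst2 has 2, beginning 130 and 124 bases before it. The single matches of Oas3, Gbp2 and Irgm2 begin 75, 59 and 64 bases before the start. The string was thus present in promoters of genes of either direction.

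Pattern recognition receptors sense microbial and damaged-cell products. Of 26 pattern recognition receptors, 8 were higher in neutrophils and 2 in monocytes (median log2 -0.85, or -0.99 with 0 calls without tag_482). Cd14 was at 44853 and 30347 CPM in neutrophils and 6271 and 3751 CPM in monocytes, although it is a monocyte antigen in human blood. The lectins Clec4e (log2 -2.66 ± 0.55) and Clec4d (5803 and 3438 against 390.4 and 177 CPM, log2 -4.03 ± 0.56) and the inflammasome sensor Nlrp3 (-2.69 ± 0.55) were higher in neutrophils. Tmem173, the cytosolic DNA pathway protein STING, was higher in monocytes, at 63.1 and 42.3 against 2.05 and 0 CPM (log2 5.65 ± 1.25, adjusted p = 0.0177). Tlr2 (472 and 602 against 1341.2 and 882 CPM) and Clec4n (289 and 275 against 329 and 227 CPM) did not pass. Trem1, which amplifies inflammatory signals, was at 16197 and 11162 against 838 and 767 CPM (log2 -4.09 ± 0.51). Of 7 Fc receptors, Fcgr4 was higher in neutrophils (log2 -1.79 ± 0.32) and Fcgrt, the neonatal Fc receptor, in monocytes (3.76 ± 0.79), with a median of -0.85, or -0.77 with 0 calls without tag_482. The high-affinity receptor Fcgr1 was at 589.8 and 655 CPM in monocytes and 10.9 and 86.4 CPM in neutrophils (adjusted p = 0.0675).

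Of 30 inflammatory cytokine and NF-kB feedback genes, 11 were higher in neutrophils and 3 in monocytes (median -1.42, -1.47 without both tag_482 libraries with 2 calls). Il1b was at 23354 and 20414 CPM in neutrophils and 3083 and 2248 CPM in monocytes (log2 -3.04 ± 0.54, adjusted p = 0.00736), and its antagonist Il1rn at 3419.5 and 1617 against 416 and 193 CPM (log2 -3.05 ± 0.58). The NF-kB regulator Nfkbiz was at 5516 and 3347 against 241 and 306 CPM (log2 -4.02 ± 0.44). Tnf was low and overlapped, at 53.6 and 77.5 CPM in monocytes and 62.02 and 12.9 CPM in neutrophils. Nfkbia (1263 and 1858 against 3822 and 4558 CPM) did not pass. Of 28 immediate early and stress genes, 5 were higher in neutrophils and 1 in monocytes (median -0.8, or -1.05 with 0 calls without tag_482): the phosphatase Dusp1 (log2 -2.2 ± 0.45), Fos (-1.47 ± 0.42), Junb (-1.79 ± 0.44) and Btg2 (3678 and 3729 against 226 and 449.6 CPM) were higher in neutrophils. These genes also respond to tissue digestion and sorting, and whether handling differed between the sorts was not tested. Of 14 eicosanoid and histamine genes, 4 were higher in neutrophils and 0 in monocytes (median -0.8, or -0.72 with 0 calls without tag_482): Hdc, the cyclooxygenase Ptgs2 (1861 and 1413 against 262 and 265 CPM), Pla2g7 (2276 and 2611 against 575 and 285 CPM) and the lipoxygenase Alox5 (238 and 433 against 2.47 and 14.6 CPM). Alox5ap, its activating protein, was at 751 and 791 CPM in monocytes and 1187 and 1526 CPM in neutrophils.

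Genes linked to suppression of immune responses were divided. Of 23, 8 were higher in neutrophils and 6 in monocytes (median -0.64, or -1.09 with 1 call in neutrophils without tag_482). Arg2, the mitochondrial arginase, was at 1083 and 599.5 CPM in neutrophils and 104 and 30.4 CPM in monocytes (log2 -3.65 ± 0.62), the ectonucleotidase Entpd1 at 2846 and 1246 against 244 and 59.99 CPM (log2 -3.75 ± 0.70), Lilr4b at 3225 and 1442 against 438 and 389 CPM and Wfdc17 at 1071 and 809.8 against 311 and 345 CPM. Cd274, the checkpoint ligand PD-L1, was at 847 and 625 against 188 and 17.6 CPM and just missed the threshold (log2 -2.84 ± 0.83, adjusted p = 0.0518). Arg1 was at 0 in both neutrophil libraries and at 0.86 and 0 CPM in monocytes, and Nos2 at 5.88 and 0 and 1.51 and 0 CPM, both too low to compare. Acod1, which makes itaconate, was at 14365 and 7060.1 CPM in neutrophils and 37.5 and 4.7 CPM in monocytes (log2 -8.98 ± 1.58, adjusted p = 0.00725). Tnfsf10, the death ligand TRAIL, stayed at or under 1.53 CPM in all 4 libraries.

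Of 27 myeloid transcription factors, 6 were higher in monocytes and 4 in neutrophils (median 1.13, or 1.0 with 1 and 1 calls in monocytes and neutrophils without tag_482). Spi1, which encodes PU.1 and acts in both lineages, was higher in neutrophils (203 and 142 against 52.2 and 43.2 CPM, log2 -1.85 ± 0.37), as were Ets2 (2510.1 and 2035 against 141 and 163 CPM) and Nr4a1. Irf8, needed for monocyte and dendritic cell development, was higher in monocytes (log2 5.37 ± 1.34, adjusted p = 0.029). Klf4 (21.7 and 61.7 against 9.34 and 16.4 CPM), Id2 (813 and 862 against 356 and 411 CPM) and Irf5 (554 and 479.7 against 219.8 and 158 CPM) did not pass, and Cebpe, of late granulocyte maturation, was at 1.02 and 4.57 CPM in neutrophils and 2.15 and 0.12 CPM in monocytes.

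Lysosomal enzymes digest material that phagocytes take up. Of 25 lysosomal and cathepsin genes, 10 were higher in monocytes and 1 in neutrophils (median 1.38, 1.64 without both tag_482 libraries with 0 calls). Psap, a lysosomal activator of lipid breakdown, was at 3994 and 3203 against 629 and 863 CPM (log2 2.27 ± 0.49), the protease Ctss, which trims the invariant chain, at 2874 and 2821 against 549 and 815 CPM (log2 2.06 ± 0.51), and Cst3 at 2488 and 3396 against 1047 and 1215 CPM. Ctsd was the member higher in neutrophils (2949.8 and 2533 against 705 and 812 CPM, log2 -1.85 ± 0.53), and Ctsb did not pass (2060.1 and 1812 against 1098 and 1267 CPM). Of 28 complement, coagulation and matrix genes, 8 were higher in monocytes and 3 in neutrophils (median 2.47, or 1.99 with 2 calls in monocytes without tag_482). Cfb, factor B of the alternative pathway, was at 668 and 303 against 11.9 and 0.571 CPM (log2 6.27 ± 1.47). The transglutaminase Tgm2 (6405 and 4270.0 against 1867 and 1186 CPM) and the metalloproteinase Adam8 (6726 and 4072 against 551 and 369.9 CPM) were higher in neutrophils. Thbs1, thrombospondin 1, was at 6412 and 1949 CPM in monocytes and 6516 and 3523 CPM in neutrophils and overlapped, as did Tgfbi (1361 and 844 against 1525 and 959 CPM). Of 27 scavenging and lipid genes, 6 were higher in monocytes and 4 in neutrophils (median 0.77, or 0.64 with 1 call in neutrophils without tag_482). The scavenger receptor Msr1 was at 387 and 392 against 7.55 and 0.286 CPM and the endocytic receptor Lrp1 at 361 and 299.6 against 50.3 and 46.1 CPM (log2 2.78 ± 0.41), while the lipase inhibitor G0s2 was at 4222 and 5628 against 4.3 and 26.7 CPM in neutrophils and monocytes and the triglyceride enzyme Dgat2 at 1017 and 342 against 85.03 and 42.04 CPM. The lipid droplet protein Plin2 (1103 and 782 against 768 and 577 CPM) did not pass.

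**Figure D3:**
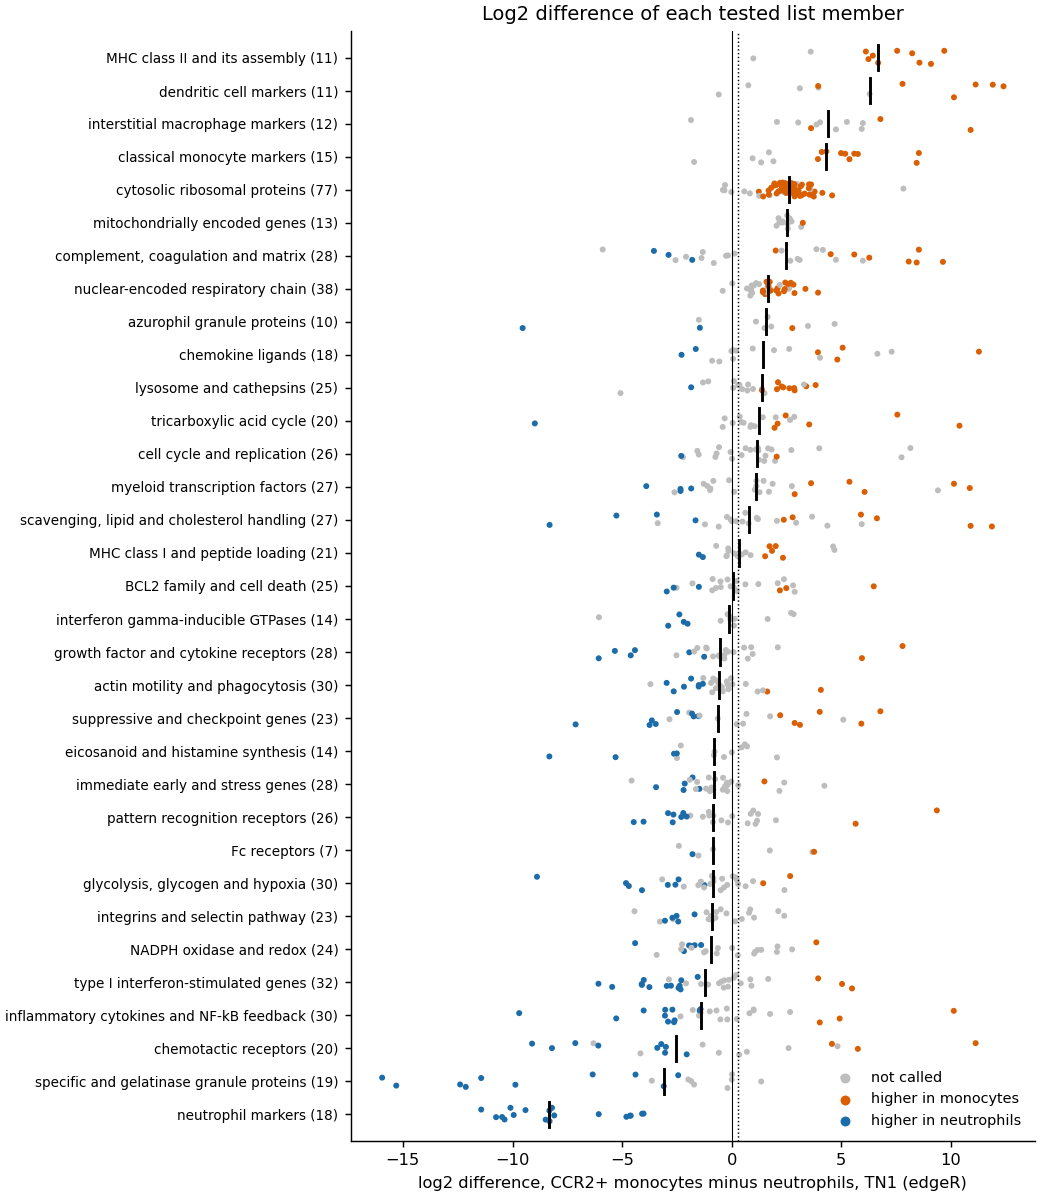
Log2 difference of each tested member of the functional lists and of 4 marker lists, monocytes minus neutrophils in TN1. Each point is a gene, orange or blue where called higher in monocytes or neutrophils and grey otherwise, the thick bar is the list's median, the dotted line the median of all genes (0.28) and the number in brackets the members tested. Medians run from -8.32 for the neutrophil markers to 6.68 for MHC class II.

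Genes of protein synthesis and respiration were higher in monocytes where they were called. Of 77 cytosolic ribosomal protein genes, 63 were higher in monocytes and 0 in neutrophils (median log2 2.6), and 73 did not overlap between the cell types. Without both tag_482 libraries the median was 2.66 with 4 calls. The list took 5.08% and 4.24% of TPM in monocytes and 0.662% and 0.786% in neutrophils. Rplp0, of the ribosomal stalk, was at 1238 and 990.2 against 176 and 243 CPM (log2 2.41 ± 0.38), and Rpl4 at 964 and 989 against 57.7 and 84.7 CPM (log2 3.78 ± 0.47). Rps9 was at 886 and 818 CPM in monocytes and 834 and 893 CPM in neutrophils and did not pass, nor did Rpl10 or Fau (86.2 and 53.97 against 94.8 and 81.9 CPM). Ribosomal protein genes have many processed copies in the genome, so the split of reads among copies is uncertain.

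Of 38 nuclear-encoded respiratory chain genes, 21 were higher in monocytes and 0 in neutrophils (median 1.66, 1.81 without both tag_482 libraries with 1 call). Uqcrc1 of complex III (log2 2.69 ± 0.43), Sdhb of complex II (2.09 ± 0.37), Atp5a1 of ATP synthase (1.68 ± 0.35) and Cox4i1 of complex IV (1.42 ± 0.33) were among them, while Sdha (170.2 and 209 against 202 and 303 CPM) and Atp5b (794 and 797 against 450.0 and 388 CPM) did not pass. The 13 mitochondrially encoded genes had a median of 2.53, or 3.82 with 3 calls in monocytes without tag_482, and 1 was called with all libraries, mt-Nd6 (log2 3.24 ± 0.90, adjusted p = 0.0435). How many passed depended on the libraries and the tool: all 13 were called higher in monocytes without the tag_482 neutrophils (median 5.32) and 0 without the tag_482 monocytes (median 1.07), while DESeq2 called 8, limma-voom 10 and limma-trend 12. They took 5.82% and 19.9% of TPM in monocytes and 0.283% and 3% in neutrophils, and the tag_482 library was the higher within each cell type. mt-Co1, for example, was at 9637 and 34859 CPM in monocytes and 980.0 and 6592 CPM in neutrophils (log2 2.55 ± 0.85, adjusted p = 0.0799). With these 13 genes left out before scaling, 768 genes were higher in monocytes and 835 in neutrophils. Of 20 genes of the tricarboxylic acid cycle, 6 were higher in monocytes, among them Idh3b (log2 2.46 ± 0.46), Suclg1 (1.95 ± 0.43) and Sdhb, and 1 in neutrophils, Acod1, which draws from the cycle (median 1.23, or 1.61 with 2 calls in monocytes without tag_482).

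Neutrophils are known to draw most of their energy from glucose. Of 30 glycolysis, glycogen and hypoxia genes, 8 were higher in neutrophils and 2 in monocytes (median -0.87, -0.92 without both tag_482 libraries with 1 call). The glucose transporter Slc2a3 was at 2273 and 1758 CPM in neutrophils and 6.77 and 1.69 CPM in monocytes (log2 -8.89 ± 1.69), Slc2a1 at 1087 and 973 against 216 and 131 CPM (log2 -2.57 ± 0.40), the lactate exporter Slc16a3 at 10620.3 and 6555 against 665 and 339 CPM (log2 -4.1 ± 0.53) and the glycogen phosphorylase Pygl at 1263 and 1408 against 74.8 and 28.2 CPM (log2 -4.7 ± 0.54). Not all called members of the list are described here, and neither of the 2 higher in monocytes is. The enzymes of glucose breakdown Pkm, Ldha, Aldoa and Eno1 did not pass. Pkm was at 1389 and 1099 CPM in monocytes and 2756 and 3222 CPM in neutrophils. In the same order, Ldha was at 861 and 1174 and 965 and 849 CPM and Aldoa at 690.5 and 617 and 873 and 982 CPM. Eno1 was at 553 and 585 and 387 and 544 CPM.

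**Figure D4:**
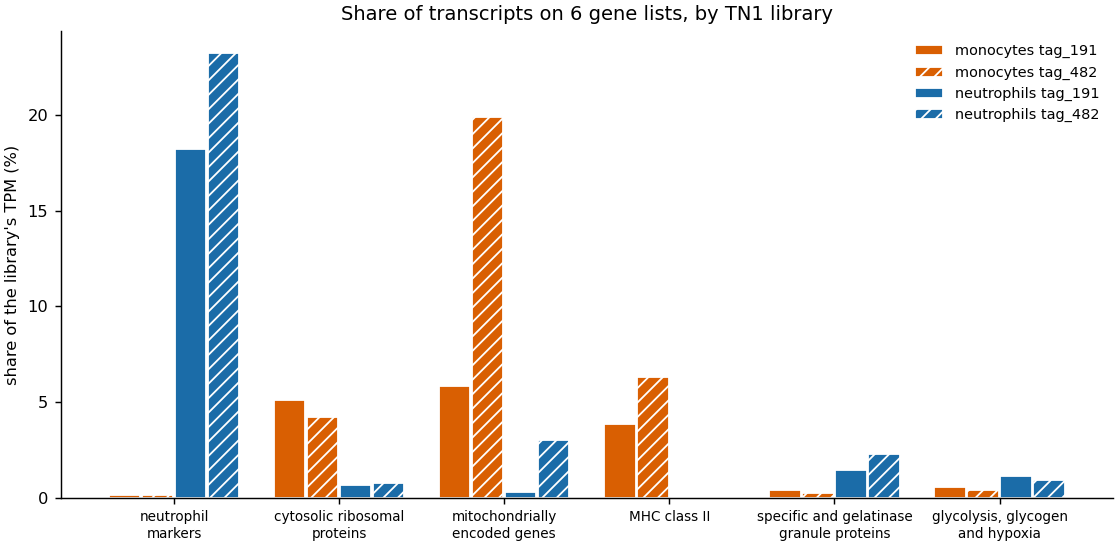
Share of each TN1 library's TPM (y, percent) on 6 gene lists: orange CCR2+ monocytes, blue neutrophils, plain bars tag_191, hatched bars tag_482. Neutrophil markers took 18.2% and 23.2% in neutrophils, ribosomal proteins 5.08% and 4.24% in monocytes, and mitochondrially encoded genes 19.9% in the tag_482 monocytes.

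The lineage ratio was computed separately within each tag as log2 of monocyte over neutrophil CPM, each plus 0.5. Over all 13398 genes the 2 ratios had the same sign in 65.9% and a Spearman coefficient of 0.558 across genes, given as a description. All 1680 called genes had the same sign in both tags, a property that their separation into non-overlapping pairs already fixes.

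**Figure D5:**
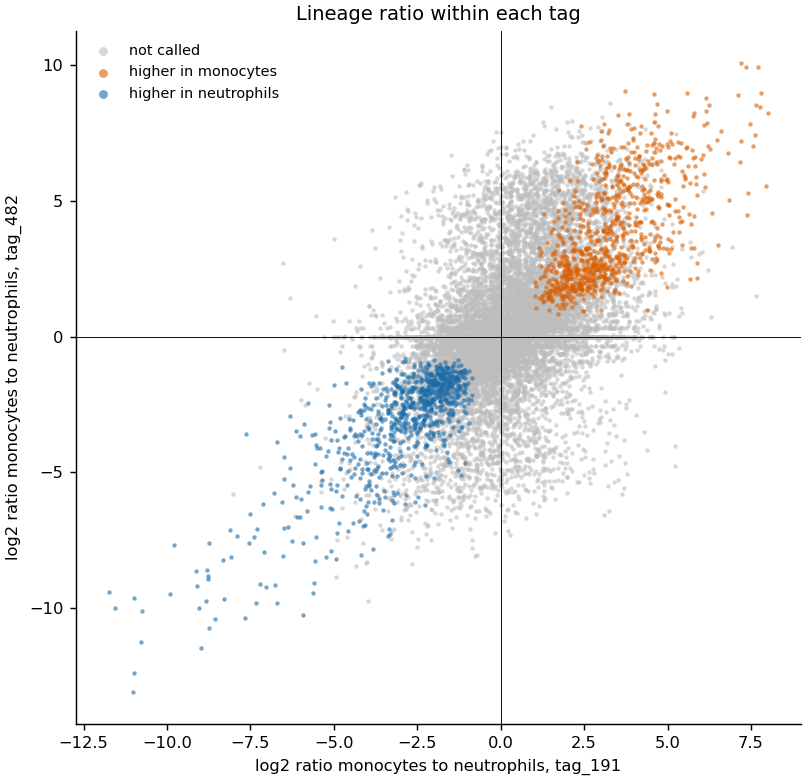
Log2 ratio of monocyte to neutrophil CPM (each plus 0.5) within tag_191 (x) and within tag_482 (y), 1 point per tested gene, orange or blue where called higher in monocytes or neutrophils. Called genes lie in the quadrants where both ratios have the same sign, and grey genes, among them many far from 0 in 1 tag, fill all 4 quadrants.

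Whether a lineage difference was particular to TN1 was tested as the difference between the TN1 and the TN2 effect. It was called in 0 of 13398 genes (0%) by edgeR, where 472 genes had an unadjusted p under 0.05 and the smallest adjusted p was 0.349. DESeq2 called 30 genes, limma-voom 0, and edgeR called 380 without the TN1 neutrophil library of tag_191 and 71 without the TN1 monocyte library of tag_191. Spon1, Padi4 and Utp15 were among the 4 genes with the smallest p. Spon1 averaged 277 ± 6.76 CPM (SD, n = 2) in TN1 monocytes and 1.02 ± 0.175 CPM in TN1 neutrophils, and 257 and 25.3 CPM in the TN2 groups (difference of log2 effects 4.73 ± 0.75 SE, adjusted p = 0.628). The monocyte means of the 2 tumours were close and the neutrophil means were farther apart. Padi4, which citrullinates histones in neutrophils, was at 67.1 and 121 CPM in TN1 neutrophils and 0 counts in TN1 monocytes (at least 552-fold lower), and averaged 57.8 CPM in TN2 neutrophils and 2.76 CPM in TN2 monocytes. Utp15, of ribosome assembly, was at 11.1 and 65.9 CPM in TN1 monocytes and 0 counts in TN1 neutrophils. The TN2 group means had the direction of the TN1 call in 856 of the 857 genes higher in monocytes and in 823 of 823 higher in neutrophils. As all libraries shared 1 fit, this agreement of signs is a description.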

How the data were processed

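Lung neutrophils and CCR2+ monocytes were sorted and their RNA amplified by Smart-seq2 and sequenced, per the labels' protocols. The authors quantified transcripts with kallisto 0.42.3 on GRCm38, per the submitters' processing notes, and deposited estimated counts and TPM per transcript, per the file headers. Neither file says how far kallisto's assignment between similar transcripts is uncertain, and strand use is not given in the sources used here. Both units were summed to genes with Ensembl names, which matched 96.1% of transcripts and left 1.92% to 3.54% of counts unmatched, and expected counts were rounded. Genes were kept by edgeR's expression filter (total of at least 10 counts). Scaling was TMM, and 1 quasi-likelihood model of 4 groups over 10 libraries (6 residual degrees of freedom) gave the contrasts in edgeR 4.0.16 under R 4.3.3, with Benjamini-Hochberg adjustment at 0.05. The scripts were tested on simulated data with a smaller spread between libraries than these data, whose biological coefficient of variation was 0.887. That test checks the code and gives no error rate for these libraries. Alternatives were DESeq2 1.42.0, limma 3.58.1 on counts and TPM, other filters and scaling, the replicate block, the 4 TN1 libraries alone and each library left out. Leaving out both libraries of a tag was chosen after seeing the data. Named genes were a preset list, the 12 smallest p-values per direction, the 10 most abundant called genes per direction, up to 4 called and 4 uncalled members of each list by level, and the 4 smallest p-values of the tumour contrast. Some genes that these rules name are not reported here. Members and lists were chosen with earlier results of these data known. Depth limits precision by counting error only in part: the chi-square per degree of freedom between libraries of a group was 119 and 120.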

Additional observations from a re-analysis of the deposited data

How the results depend on the processing

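Of the 206 genes named above with a level or a call, 149 were called and 57 were not. The called genes kept their direction under the alternatives run, which for libraries left out their non-overlap already fixes, and 123 of them lost the call at least once. Of the others, 22 gained a call at least once and 25 turned direction. The log2 differences that turned were, with both tag_482 libraries left out, Ifngr1 (-0.17), Ccl4 (-0.27), Chil3 (0.74), Clec4n (-0.25), Tnf (-0.27), Cebpe (0.998), Rps9 (0.022) and Ldha (-0.23), and with both tag_191 libraries left out, Cx3cr1 (-6.61), Cxcl1 (-0.092), Mpo (4.31), Cyba (-0.039), H2-Eb2 (-0.24), H2-K1 (0.081) and Tnfsf10 (0.48). They were, with limma-trend on log2(TPM + 1) and log2(TPM + 0.1), Cx3cr1 (-0.015 and -1.01), Csf2rb (0.27 and 0.27), Ccl3 (0.011 and 0.011), H2-K1 (0.34 and 0.34), Tnfsf10 (0.054 and 0.26), Thbs1 (0.088 and 0.088), Tgfbi (0.37 and 0.37), Rps9 (0.52 and 0.52), Fau (0.198 and 0.199), Sdha (0.41 and 0.41) and Aldoa (0.015 and 0.015). Others turned with limma-voom, Cx3cr1 (-1.75) and Mpo (0.061), with the replicate block, Cx3cr1 (-1.52), with the stricter filter, Ccl4 (-0.023), Cyba (-0.056) and Clec4n (-0.056), and without mitochondrially encoded genes, Cyba (-0.057) and Clec4n (-0.039). Leaving out 1 library at a time, the ranges that crossed 0 were Cx3cr1 (-6.16 to 1.63), Ifngr1 (-0.13 to 0.16), Csf2rb (-0.71 to 0.102), Cxcl1 (-0.25 to 0.85), Ccl3 (-1.14 to 0.103), Ccl4 (-0.37 to 0.67), Mpo (-2.48 to 5.15), Cyba (-0.13 to 0.18), Hmox1 (-0.13 to 3.9), Chil3 (-3.82 to 0.0072), H2-K1 (-0.401 to 0.17), Irgm1 (-0.25 to 0.62), Clec4n (-0.21 to 0.31), Nos2 (-7.89 to 5.9), Tnfsf10 (-0.85 to 0.95), Cebpe (-4.49 to 0.16), Thbs1 (-1.43 to 0.32), Tgfbi (-0.62 to 0.201), Rps9 (-0.15 to 0.037) and Ldha (-0.11 to 0.301).

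The counts of genes higher in monocytes and in neutrophils were 204 and 338 with the 4 TN1 libraries alone, 2062 and 1536 with DESeq2 and 59 and 77 without both tag_482 libraries. The monocyte-high count was 1320 with limma-voom, 2462 and 2262 with limma-trend on log2(TPM + 1) and log2(TPM + 0.1), and 1367 without both tag_191 libraries. Leaving out 1 library at a time gave 224 to 1392 and 261 to 934. The test of TN1 against TN2 gave 1 gene with no filter on low counts, 30 with DESeq2, 732 without both tag_191 libraries and 0 to 380 leaving out 1 library. The cause was not tested, other than that fewer libraries were tested in those that left some out. With the tag as a replicate block 690 and 780 genes were called, 1286 of these 1470 among the 1680, and all 13 mitochondrially encoded genes were called higher in monocytes (median 3.12) against 1 without the block. The tags were not taken as pairs, since same-tag deviations correlated at 0.09 in TN1 and at -0.06, 0.38 and 0.34 in TN2. The labels do not say whether a tag marks a shared animal, so pairing was neither shown nor excluded. Deviations in TN2 correlated best with their own number for tag_706 and tag_1341 and not for tag_367, and the 2 libraries a group of TN1 allow 1 mirrored value, which tells no tag from the other.

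Of 769 list medians under alternatives, 665 moved by less than the spread between libraries, 83 moved more and 21 changed sign. The nonclassical monocyte median was -0.47 with the replicate block, -0.44 with limma-voom, -0.078 with limma-trend on log2(TPM + 0.1) and -0.77 without both tag_191 libraries. Its range leaving out 1 library at a time was -0.97 to 0.39, negative without the TN1 neutrophils or the TN1 monocytes of tag_191. The alveolar macrophage median was 0.23 without both tag_482 libraries, and the Fc receptor median 0.37 with a stricter filter. Growth factor and cytokine receptors had medians of 0.042 and 0.042, and interferon gamma-inducible GTPases of 0.11 and 0.17, with limma-trend on log2(TPM + 1) and log2(TPM + 0.1). BCL2 family medians were -0.024 with the 4 TN1 libraries alone, -0.032 with the replicate block, -0.13 with the stricter filter, -0.040 with limma-voom and -0.095 to 0.074 leaving out 1 library. Azurophil granule proteins ranged from -0.75 (without the TN1 monocytes of tag_191) to 2.56, and suppressive genes from -1.13 to 0.22 (without the TN1 neutrophils of tag_191). The cause was not tested. With 2 libraries a cell type, genes of low count were not detectable as different unless the difference was large.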

Other observations

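Genes of cell division, cell death and movement were not described above. Of 26 cell cycle and replication genes, 1 was higher in monocytes (Tubb5) and 1 in neutrophils (Hmgb2), with a median log2 difference of 1.15, or 1.13 with 0 calls without both tag_482 libraries. Of 25 BCL2 family and cell death genes, 3 were higher in monocytes (Bax, Casp8 and Mlkl) and 3 in neutrophils (Bcl2a1b, Bid and Fas), named after their values were seen, with a median of 0.08, or 0.0032 with 0 calls without tag_482. Of 30 actin, motility and phagocytosis genes, 7 were higher in neutrophils and 2 in monocytes (median -0.57, or -0.68 with 0 calls without tag_482). Actg1 was at 27956 and 15425 CPM in neutrophils and 7183 and 4799.8 CPM in monocytes (log2 -1.86 ± 0.44 SE).

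Transcript usage was examined in 1204 genes with at least 20 TPM in every TN1 library and more than 1 transcript. In 13 genes the share of a transcript was separated by at least 40 percentage points between the cell types in both libraries of each. No test was run, and kallisto's assignment error is not given in the files. Among the 6 such genes with the highest level, Ctdsp1-203 took 69.7% and 67.7% of Ctdsp1 TPM in monocytes (tag_191 and tag_482) and 0% in both neutrophil libraries, where Ctdsp1-201 took 81.1% and 83.8%. Use1-201 took 69.4% and 79.1% in monocytes and 27.5% and 13.9% in neutrophils, and Csnk1d-202 66.4% and 91.9% against 19.2% and 24.2%. Rbms1-206, annotated as a processed transcript, took 14.2% and 15.2% in monocytes and 59.1% and 72.4% in neutrophils. Mfsd10-209, a retained intron, took 1.94% and 0% in monocytes and 49.3% and 46.5% in neutrophils, and Rps6ka1-207, a processed transcript, 0% in both monocyte libraries and 47.1% and 47.5% in neutrophils.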
